A study of Mus musculus with 16 samples.

Results

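The genes described here are 10 genes of the antioxidant response: the regulators Nfe2l2 and Keap1, the glutathione synthesis genes Slc7a11, Gclc and Gclm, the thioredoxin system genes Txnrd1 and Srxn1, and the detoxification genes Hmox1, Nqo1 and Mgst1. They were taken by name, with no threshold on their values but with earlier results of these data known, and each was matched to 1 Ensembl gene among the 49585 rows of each of 2 count tables. RNA-seq was done in 16 libraries of C2C12, a mouse muscle precursor line whose cells stop dividing and join into myotubes in low serum, to ask how loss of AMPK, the cellular energy sensor, and phosphorylation of the DNA demethylase TET2 affect muscle differentiation. The first table held unedited wild-type cells (WT) and AMPK-KO cells, in which both catalytic subunit genes, Prkaa1 and Prkaa2, had been targeted with CRISPR-Cas9, before differentiation (d0) and at d8, which made 4 groups of 2 libraries. The second table held undifferentiated cells on the AMPK-KO background, in which a FLAG-BirA tag and a fluorescent protein sequence had been knocked in at the endogenous Tet2 gene. TET2-WT cells kept the wild-type sequence behind the tag, and TET2-S97E cells carried in addition a serine-to-glutamic-acid change that mimics the phosphorylated serine. Each of these genotypes was represented by 2 clones with 2 libraries per clone. Neither the WT cells of the first table nor untagged AMPK-KO cells were in the second table, and a pair of independent AMPK-KO lines was used by the study, but the labels tie no library of the first table to a line. If its AMPK-KO replicates came from different lines, the spread between replicates and that between lines cannot be told apart.

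NRF2, encoded by Nfe2l2, is a transcription factor that KEAP1 binds and hands to a ubiquitin ligase for degradation in unstressed cells. Oxidants and electrophiles modify KEAP1, NRF2 accumulates, pairs with a small MAF protein and binds antioxidant response elements in the promoters of genes that make glutathione, regenerate thioredoxin and detoxify quinones and heme, and BACH1 competes for the same elements. In skeletal muscle this system handles the oxidants that come with mitochondrial respiration and contraction, and the transcript of Nfe2l2 itself need not follow the activity of the protein.

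The first table held 17883417 to 24663079 counted reads per library, and libraries of the second had a depth of 19801909 to 37790358. All 10 genes passed the filter on low counts in both tables. Summed over the 8 libraries, Slc7a11 had 903 and 273 reads and Mgst1 had 1762 and 623 reads, whereas the other 8 genes had between 2403 (Nqo1, second table) and 60653 (Txnrd1, first table). Levels are given as counts-per-million values (CPM) after normalization by the trimmed mean of M values (TMM), each table on its own, and levels of different genes are compared only as transcripts-per-million values (TPM), which divide by exon length. Annotated genes overlap Nfe2l2, Keap1, Slc7a11, Gclm and Txnrd1, and the one with the most reads in the first table, the opposite-strand gene Gm17494 at Gclm, had 156 reads against 11202 for Gclm. In the second table it was the opposite-strand gene Gm16754 at Keap1, with 214 reads. The 5 genes with a call between genotypes or times lie on GRCm38 as follows. Mgst1 (ENSMUSG00000008540.11) spans chr6:138140316-138156755 on the plus strand, and Gclc (ENSMUSG00000032350.9) spans chr9:77754535-77794485 on the plus strand. Gclm (ENSMUSG00000028124.15) spans chr3:122245557-122270732 and Srxn1 (ENSMUSG00000032802.8) spans chr2:152105516-152111376, both on the plus strand. Nqo1 (ENSMUSG00000003849.8) spans chr8:107388225-107403206 on the minus strand.

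The edited genes were examined first. Prkaa1 was at 159 and 159 CPM in WT d0 and at 79.7 and 78.0 CPM in AMPK-KO d0, and at d8 it was at 126 and 125 against 83.3 and 82.5 CPM. Prkaa2, the isoform that rises with muscle differentiation, was at 1.69 and 1.79 CPM in WT d0 and at 0.209 and 0.421 CPM in AMPK-KO d0. At d8 Prkaa2 was at 6.22 and 10.1 CPM in WT and at 1.26 and 0.826 CPM in AMPK-KO cells. Transcripts of both targeted genes were thus lower in every AMPK-KO library and not absent, and a small frame-disrupting edit can leave a transcript that is still counted. Tet2 was at 22.5 to 58.4 CPM in the 4 TET2-WT libraries and at 7.88 to 22.1 CPM in the 4 TET2-S97E libraries, with no overlap, but this difference did not pass the test (log2 fold change -1.40, SE 0.386, adjusted p = 0.0621, by edgeR's quasi-likelihood test with Benjamini-Hochberg adjustment, the test behind each adjusted p unless another is named).

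The cells were of the muscle lineage as labelled. The myoblast list (Myod1, Myf5, Pax7, Cdh15, Des), with Des the most abundant in each library, summed to between 977 and 3900 CPM. The myotube list (Myog, Myh3, Myh1, Ckm, Acta1), led by Acta1, summed to 115 and 76.1 CPM in WT d0, 13.8 and 3.74 CPM in AMPK-KO d0, 4630 and 6920 CPM in WT d8 and 1350 and 8330 CPM in AMPK-KO d8. The fibroblast list (Pdgfra, Thy1, Col1a1, Lum), led by Col1a1 or Pdgfra, summed to between 72.2 and 1500 CPM. Markers of cells that should be missing were at or near 0: the macrophage list summed to at most 7.87 CPM with Adgre1 at 0 reads in each library, the endothelial list to at most 3.66 CPM and the adipocyte list to at most 1.67 CPM.

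Per length, the order of the 10 transcripts was led by Txnrd1, Nfe2l2 and Srxn1 in WT d0, at 216 ± 41.8, 161 ± 12.6 and 145 ± 26.8 TPM (mean ± SD, n = 2 here and for each group of the first table). Hmox1 (97.4 ± 8.93 TPM), Nqo1 (80.1 ± 17.4 TPM) and Gclc (73.9 ± 11.5 TPM) followed, then Gclm (44.6 ± 8.55 TPM), Keap1 (41.4 ± 6.44 TPM) and Mgst1 (28.9 ± 25.1 TPM). Slc7a11 was last at 1.51 ± 0.834 TPM, on a long merged exon length that lowers its TPM. Of the neighbours in this order, Nfe2l2 and Srxn1, Hmox1 and Nqo1, Nqo1 and Gclc, Gclm and Keap1, and Keap1 and Mgst1 had overlapping ranges of mean ± SD. At WT d8, Nfe2l2 came first at 195 ± 25.5 TPM and Nqo1 had dropped to the ninth place at 13.6 ± 4.15 TPM.

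Among the 10 genes, 1 passed the test between AMPK-KO and WT cells at d0, and it was lower in the knockout: Mgst1, which encodes a membrane-bound glutathione transferase of the endoplasmic reticulum and outer mitochondrial membrane. Over all 14329 genes tested, 2.83% were called lower and 0.698% higher in this comparison. Mgst1 was at 25.7 and 6.45 CPM in the WT d0 libraries (533 and 119 reads) and at 1.47 and 0.935 CPM in the AMPK-KO d0 libraries (28 and 20 reads). The groups did not overlap, but the WT libraries differed from each other several-fold. The fitted log2 fold change was -3.74 (SE 0.672, adjusted p = 0.0331). Without AMPK-KO d0 replicate 1 or replicate 2 the adjusted p was 0.169, with log2 fold changes of -4.10 and -3.48, and fitted on the d0 libraries alone it was 0.0739. Without WT d0 replicate 1 the log2 fold change was -2.43 (adjusted p = 0.0390). In bulk samples, fewer cells of a type and less RNA per cell cannot be told apart.

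At d8 the same gene was again the single one of the 10 that passed. Mgst1 was at 25.3 and 21.5 CPM in WT d8 (459 and 458 reads) and at 3.71 and 2.62 CPM in AMPK-KO d8 (91 and 54 reads). Both WT libraries lay close together here and well above both knockout libraries. The log2 fold change was -2.88 (SE 0.628, adjusted p = 0.0468), against a background of 3.98% of genes called lower and 1.36% called higher. Leaving out any 1 of these 4 libraries kept the log2 fold change between -3.13 and -2.69 but raised the adjusted p to between 0.132 and 0.184, and the stricter filter of at least 10 counts in every library gave 0.0639.

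The RefSeq promoter table (GRCm38.p6; 250 bases before to 50 after each gene's start) held 11 windows for 8 of the 10 genes. They were searched on both strands for the core of the antioxidant response element, TGACNNNGC, the site that NRF2 and small MAF proteins read. A match was found in 5 windows of 5 genes, and 12.4% of the 32851 promoters in the table held one. The stretch before the start is shown for Mgst1, which differed between the genotypes of both tables, and for Gclm and Nqo1, which fell in both differentiation series. Letters in capitals mark the match, which is on the opposite strand in Mgst1 and Gclm. Mgst1 has 2 windows, and the first is shown (chr6:138140277-138140526, plus strand). The stretch of Gclm is chr3:122245307-122245556 (plus strand) and that of Nqo1 is chr8:107403206-107403455 (minus strand).
Mgst1: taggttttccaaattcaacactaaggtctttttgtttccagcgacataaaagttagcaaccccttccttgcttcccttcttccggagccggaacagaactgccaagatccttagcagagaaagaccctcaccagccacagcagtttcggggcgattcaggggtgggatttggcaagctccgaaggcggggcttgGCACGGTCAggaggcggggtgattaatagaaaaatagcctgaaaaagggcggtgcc
Gclm: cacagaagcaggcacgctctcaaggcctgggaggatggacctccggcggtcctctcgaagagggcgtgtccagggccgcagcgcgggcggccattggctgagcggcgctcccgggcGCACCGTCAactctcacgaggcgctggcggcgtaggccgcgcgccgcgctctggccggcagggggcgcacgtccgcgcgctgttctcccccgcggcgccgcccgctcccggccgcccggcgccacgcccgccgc
Nqo1: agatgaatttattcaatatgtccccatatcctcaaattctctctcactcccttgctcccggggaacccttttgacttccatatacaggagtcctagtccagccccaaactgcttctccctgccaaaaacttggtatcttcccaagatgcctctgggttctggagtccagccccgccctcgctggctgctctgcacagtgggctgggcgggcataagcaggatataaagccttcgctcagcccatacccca
The match begins 56 bases before the start in Mgst1 and 134 bases before it in Gclm, and these letters were not in the window of Nqo1. Of the other genes, Nfe2l2 had a match beginning 240 bases before its start (TGACTCCGC), Srxn1 one at base 29 after its start on the opposite strand (GCTAGGTCA), and the second of the 3 windows of Txnrd1 one 92 bases before that start on the opposite strand (GCTTTGTCA). The windows of Keap1 and Slc7a11 had none. Gclc and Hmox1 had no window. A match describes the letters and shows neither binding nor use, and a window without a match says nothing of elements outside it.

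The regulators gave no call between AMPK-KO and WT cells. Nfe2l2 was at 177 and 167 CPM in WT d0 and at 160 and 147 CPM in AMPK-KO d0 (log2 fold change -0.16, SE 0.173, adjusted p = 0.649). At d8 it was at 218 and 182 against 242 and 197 CPM, with overlapping groups (log2 fold change 0.13, SE 0.173, adjusted p = 0.694). Keap1, the adaptor that targets NRF2 for degradation, was the steadiest of the 10 genes in this table, between 48.2 and 59.2 CPM in the 8 libraries. It differed between genotypes by 0.03 at d0 and 0.01 at d8 on the log2 scale, each with an SE of 0.153.

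The thioredoxin system genes stood higher in AMPK-KO cells on average, without passing the test. Srxn1 encodes sulfiredoxin, which restores over-oxidized peroxiredoxins. It was at 97.6 and 134 CPM in WT d0 and at 215 and 165 CPM in AMPK-KO d0, and at d8 it was at 56.0 and 38.1 against 84.3 and 119 CPM. The knockout libraries lay above the WT libraries at both times. The fitted difference on the log2 scale was 0.72 (SE 0.282, adjusted p = 0.210) at d0 and 1.11 (SE 0.285, adjusted p = 0.0745) at d8, for which DESeq2 gave an adjusted p of 0.00899. Txnrd1, the cytosolic thioredoxin reductase, was at 363 and 504 against 703 and 423 CPM at d0, where the groups overlapped, and at 249 and 178 against 299 and 279 CPM at d8, where they did not. Its log2 fold changes were 0.38 (SE 0.300, adjusted p = 0.529) and 0.44 (SE 0.301, adjusted p = 0.433). Without AMPK-KO d0 replicate 1 the d0 value of Txnrd1 turned to -0.045.

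The glutathione synthesis genes showed no call in either genotype comparison. Gclm, the modifier subunit of glutamate-cysteine ligase, was at 66.4 and 92.1 CPM in WT d0 and at 110 and 94.3 CPM in AMPK-KO d0, and at d8 at 42.5 and 34.7 against 57.3 and 52.7 CPM. Again both knockout libraries were above both WT libraries at each time, with log2 fold changes of 0.37 (SE 0.203, adjusted p = 0.360) and 0.51 (SE 0.205, adjusted p = 0.198). Gclc, the catalytic subunit of the same enzyme, was at 117 CPM in one AMPK-KO d0 library and at 48.9 CPM in the other, on either side of the WT values of 84.5 and 71.5 CPM. Slc7a11, the cystine importer that supplies the limiting amino acid, was at 3.52 and 8.46 CPM in WT d0 and at 11.8 and 8.88 CPM in AMPK-KO d0, and its fitted change of 0.79 on the log2 scale had an SE of 0.703.

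For Hmox1 and Nqo1, the AMPK-KO replicate libraries lay further apart than the means of the genotypes. Hmox1, the enzyme that opens heme to biliverdin, was at 49.7 and 46.1 CPM in WT d0 and at 117 and 53.9 CPM in AMPK-KO d0, and at d8 at 67.6 and 43.3 against 92.1 and 29.6 CPM. Nqo1, a quinone reductase, was at 39.3 and 30.4 CPM in WT d0 and at 65.0 and 26.6 CPM in AMPK-KO d0. In AMPK-KO d0 replicate 1 held the higher value of all 10 genes. The share of mitochondrial reads was 1.16% in that library and 0.666% in replicate 2, and it was higher in replicate 1 in the other groups as well (1.36% and 0.568% in WT d0, 1.43% and 0.97% in WT d8, 0.977% and 0.683% in AMPK-KO d8). Its part in the spread between replicates was not tested. In all, the libraries of the groups did not overlap for 6 of the 10 genes at d0 and for 4 at d8, against 49.4% and 57.9% of all genes tested. The fitted values were above 0 for 8 of the 10 genes at d0 (median log2 fold change 0.37, against 0.00 over all genes) and again for 8 at d8 (median 0.21, against 0.04). Both rested on 1 library: without AMPK-KO d0 replicate 1, 4 of the 10 were above 0 at d0 and the median was -0.062, and without AMPK-KO d8 replicate 1, 5 were above 0 at d8 and the median was 0.0027.

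**Figure D1:**
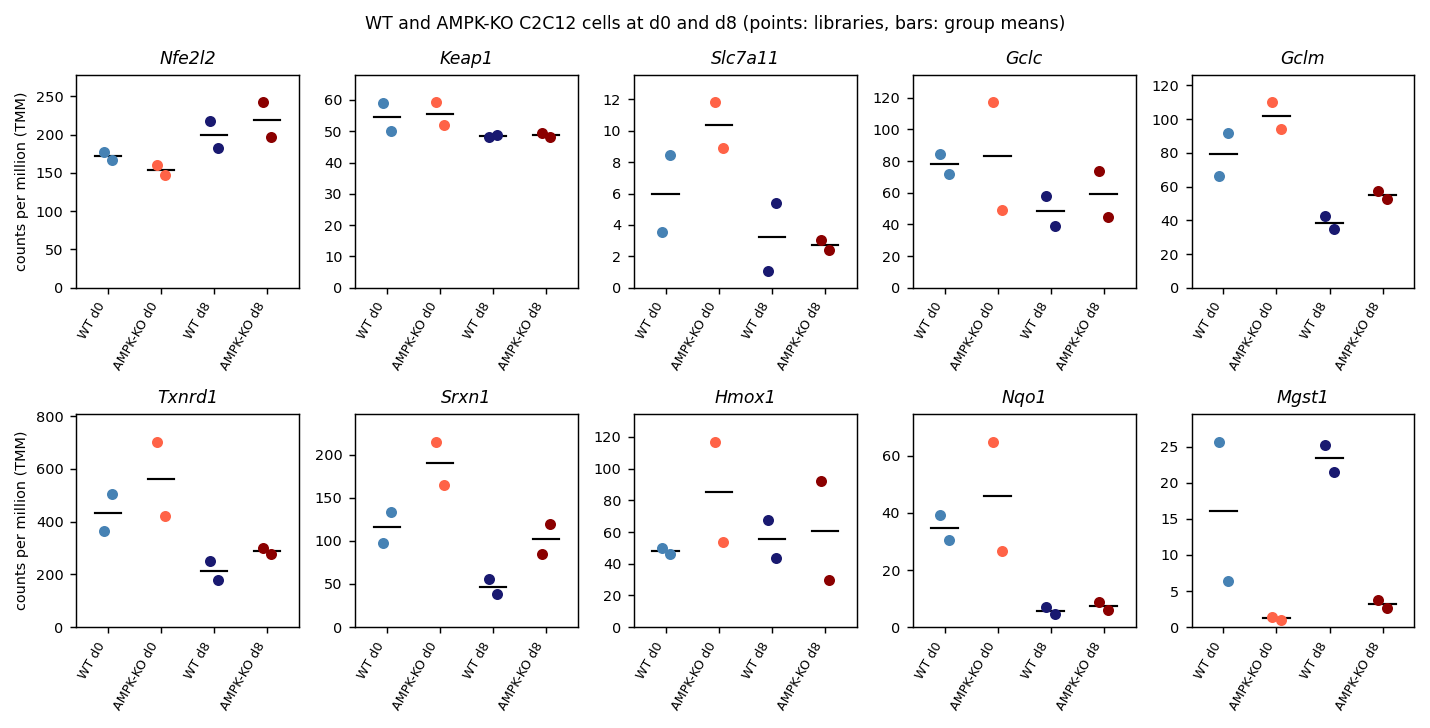
CPM (TMM-normalized, linear axes from 0) of the 10 genes in each library of WT and AMPK-KO cells at d0 and d8. Points are libraries and bars are the means of 2 libraries. Mgst1 is low in the 4 AMPK-KO libraries, between 0.935 and 3.71 CPM, and Nqo1 is low in the 4 d8 libraries, between 4.50 and 8.97 CPM.

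Differentiation was compared within each genotype, as d8 against d0. The study reports that AMPK-KO cells lost the ability to form myotubes, by morphology and myosin heavy chain. The summed myotube list at d8 was at 1350 and 8330 CPM in the AMPK-KO libraries and at 4630 and 6920 CPM in the WT libraries. The AMPK-KO d8 libraries thus lay on either side of WT, and the part of this spread in the d8 results was not tested. In WT cells 3 of the 10 passed the test between d8 and d0, and each was lower at d8: Gclm, Srxn1 and Nqo1. Of all genes, 6.58% were called lower and 5.78% higher. In AMPK-KO cells 2 passed, Gclm and Nqo1, both lower at d8, where 4.95% of genes were called lower and 4.81% higher. This count depended on the method: DESeq2 called 5, with Srxn1, Txnrd1 and Slc7a11 also lower (adjusted p = 0.029, 0.0198 and 0.0447), and edgeR without the filter on low counts called 6, these 5 and Mgst1, which was higher. In WT cells DESeq2 called 4 and edgeR without the filter 5. DESeq2 also called more genes in all, with 9.09% of those tested called lower in AMPK-KO and 9.47% in WT cells, and without the filter the shares were 5.27% and 5.89%. These 2 series share their libraries with the genotype comparisons above.

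Nqo1 had the largest fitted change of the 10 genes in each differentiation series. In WT cells it went from 39.3 and 30.4 CPM at d0 to 6.94 and 4.50 CPM at d8 (log2 fold change -2.61, SE 0.478, adjusted p = 0.0197). In AMPK-KO cells it went from 65.0 and 26.6 CPM to 8.97 and 5.88 CPM (log2 fold change -2.62, SE 0.474, adjusted p = 0.0250). The d8 libraries of both genotypes lay far below the d0 libraries, about 6-fold on the fitted scale (6.10 and 6.15). Gclm went from 66.4 and 92.1 to 42.5 and 34.7 CPM in WT (log2 fold change -1.04, SE 0.206, adjusted p = 0.0250). In AMPK-KO cells it went from 110 and 94.3 to 57.3 and 52.7 CPM (log2 fold change -0.90, SE 0.205, adjusted p = 0.0410). Srxn1 went from 97.6 and 134 to 56.0 and 38.1 CPM in WT (log2 fold change -1.30, SE 0.286, adjusted p = 0.0319). Its change in AMPK-KO cells, from 215 and 165 to 84.3 and 119 CPM, did not pass by edgeR (log2 fold change -0.90, SE 0.283, adjusted p = 0.0890).

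These calls depended on single libraries. In WT cells none of the 10 genes was called without WT d0 replicate 2, WT d8 replicate 1 or WT d8 replicate 2, and 4 were called without WT d0 replicate 1. In AMPK-KO cells, Nqo1 alone was called without AMPK-KO d8 replicate 1, and none without any of the other 3 libraries. Over these alternatives the log2 fold change of Nqo1 stayed between -2.98 and -2.35 in WT and between -3.11 and -1.86 in AMPK-KO cells, that of Gclm between -1.27 and -0.77 and between -0.99 and -0.80, and that of Srxn1 in WT between -1.63 and -1.04. Mgst1, among the genes called in WT without WT d0 replicate 1, was higher at d8 and not lower (log2 fold change 1.84).

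Among genes called in neither series, Txnrd1 had the lowest adjusted p in each. It went from 363 and 504 to 249 and 178 CPM in WT (log2 fold change -1.02, SE 0.303, adjusted p = 0.0699) and from 703 and 423 to 299 and 279 CPM in AMPK-KO cells (log2 fold change -0.96, SE 0.303, adjusted p = 0.0902). Slc7a11 in AMPK-KO cells was at 11.8 and 8.88 CPM at d0 and at 3.06 and 2.38 CPM at d8, with a wide error (log2 fold change -1.92, SE 0.728, adjusted p = 0.139). Nfe2l2 went the other way, with a log2 fold change of 0.22 (SE 0.173, adjusted p = 0.428) in WT and 0.52 (SE 0.174, adjusted p = 0.105) in AMPK-KO cells. Mgst1 in AMPK-KO cells was at 1.47 and 0.935 CPM at d0 and 3.71 and 2.62 CPM at d8 (log2 fold change 1.40, SE 0.647, adjusted p = 0.206). Keap1, Gclc and Hmox1 had adjusted p of 0.322 or more in both series. The median over the 10 genes was -0.78 in WT and -0.69 in AMPK-KO cells, against 0.01 and 0.02 over all genes tested. Without 1 library at a time it ranged from -0.92 to -0.51 in WT cells and from -0.98 to -0.34 in AMPK-KO cells, the last without AMPK-KO d0 replicate 1.

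Whether the change with differentiation differed between genotypes was tested as an interaction. None of the 10 genes passed, and 0 of 14329 genes (0.0%) did by edgeR, where 729 had an unadjusted p under 0.05, while DESeq2 called 60 genes and edgeR without the filter on low counts 449 of 25084, again with none of the 10 among them. For Nqo1 the difference of the log2 fold changes, AMPK-KO minus WT, was -0.01 (SE 0.658), for Gclm 0.14 (SE 0.288) and for Srxn1 0.40 (SE 0.398).

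**Figure D2:**
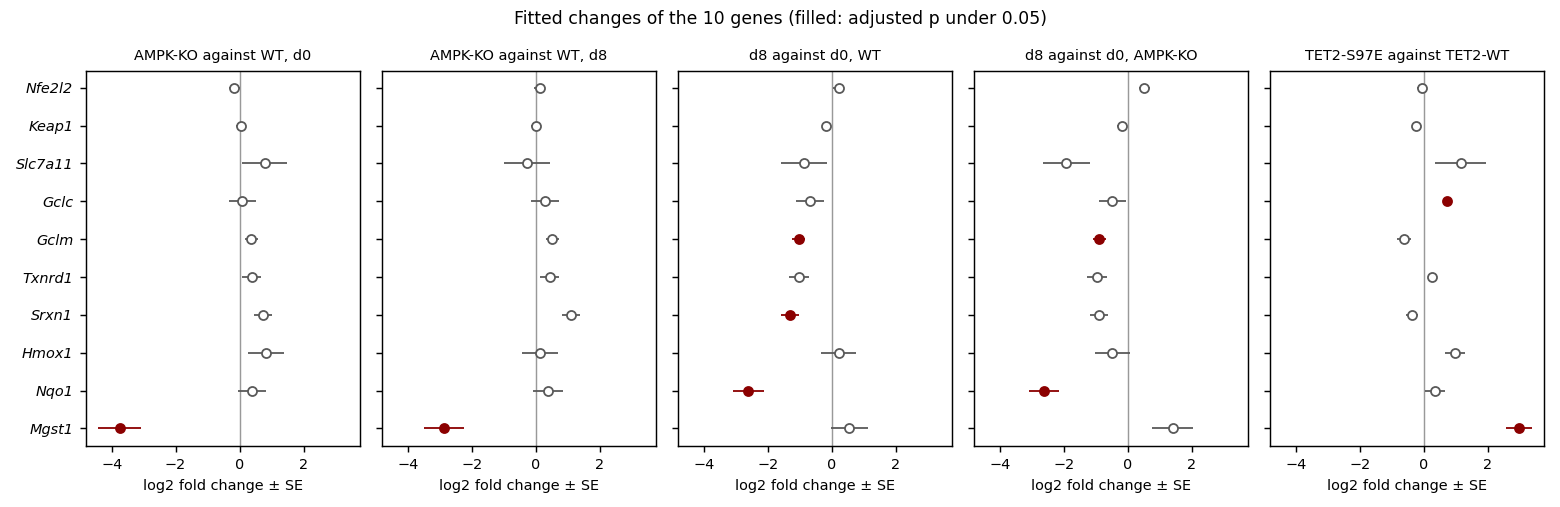
Fitted log2 fold change ± SE of the 10 genes in 5 comparisons, from edgeR. Filled points had an adjusted p under 0.05: Mgst1 in the 3 genotype comparisons, Gclm and Nqo1 in both differentiation series, Srxn1 in WT differentiation and Gclc between the TET2 genotypes.

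The wider pathway was described with lists of genes taken by name, with earlier results of these data known. Of 24 further NRF2 targets, 22 were tested. In differentiation 8 were called lower and 0 higher in WT cells (median log2 fold change -0.60), and 9 lower and 0 higher in AMPK-KO cells (median -0.37), against the 6.58% and 4.95% given above. They included enzymes of the pentose phosphate pathway, which supplies NADPH, and Gsr, the glutathione reductase. Gsr went from 75.1 and 100 to 38.7 and 33.0 CPM in WT (log2 fold change -1.29, SE 0.180, adjusted p = 0.0143) and from 81.9 and 82.8 to 31.2 and 31.1 CPM in AMPK-KO cells (log2 fold change -1.40, SE 0.181, adjusted p = 0.0209). G6pdx, the first enzyme of that pathway, went from 92.9 and 159 to 33.6 and 33.4 CPM in WT (log2 fold change -1.91, SE 0.250). Tkt, a transketolase, went from 84.8 and 95.5 to 42.4 and 40.8 CPM in AMPK-KO cells (log2 fold change -1.12, SE 0.198), and Abcc4, an organic anion exporter, from 30.4 and 26.8 to 10.2 and 8.60 CPM (log2 fold change -1.61, SE 0.262). Without 1 library at a time the count ranged from 0 to 11 in WT and from 0 to 3 in AMPK-KO cells, and the medians from -0.76 to -0.54 and from -0.57 to -0.32.

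**Figure D3:**
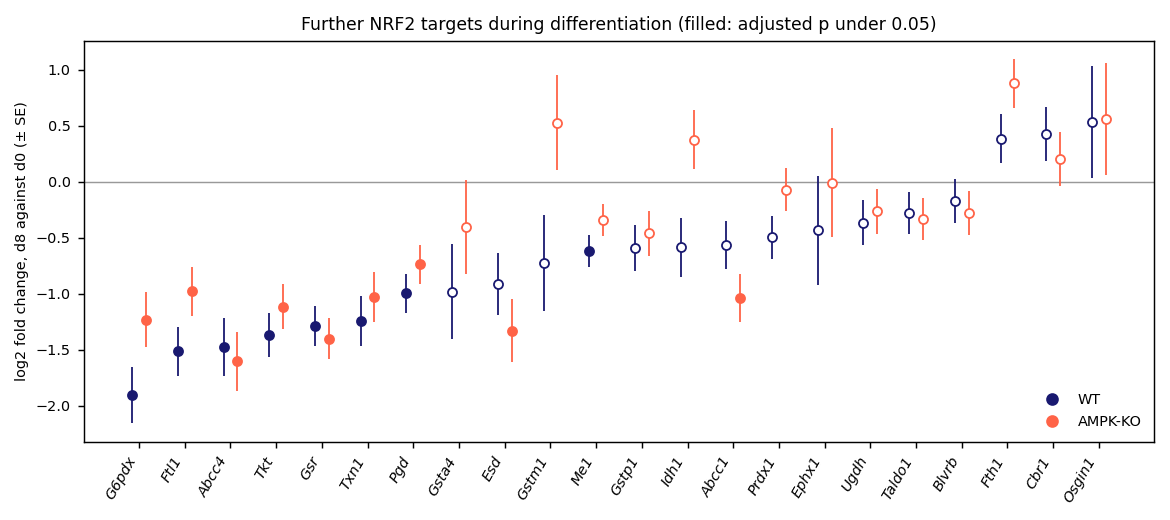
Log2 fold change (± SE) between d8 and d0 of the 22 tested further NRF2 targets in WT and AMPK-KO cells, ordered by the value in WT. Filled points had an adjusted p under 0.05, and all of these lie below 0: 8 in WT and 9 in AMPK-KO cells.

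Between AMPK-KO and WT cells 1 of the 22 further targets was called higher at d0 and 2 at d8, and 0 lower, where 0.698% and 1.36% of all genes were called higher. Blvrb, a biliverdin reductase that acts after heme oxygenase, was at 10.6 and 11.4 CPM in WT d0 and at 22.5 and 27.3 CPM in AMPK-KO d0 (log2 fold change 1.18, SE 0.198, adjusted p = 0.0270). At d8 it was at 9.97 and 9.48 against 21.1 and 19.9 CPM (log2 fold change 1.08, SE 0.198, adjusted p = 0.0294). Ftl1, the ferritin light chain, was called at d8 (log2 fold change 1.54, SE 0.220, adjusted p = 0.0140), but it has near-identical pseudogenes with which reads can be shared. The calls of Blvrb and Ftl1 were each lost when some single library was left out.

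Of 11 tested partners and regulators of NRF2, 1 was called between AMPK-KO and WT cells, lower at d0, where 2.83% of all genes were. Bach1, the repressor that competes with NRF2 for its elements, was at 81.9 and 95.1 CPM in WT d0 and at 49.5 and 54.3 CPM in AMPK-KO d0 (log2 fold change -0.77, SE 0.153, adjusted p = 0.0449), with no call from this list at d8. Nfe2l1, the related factor NRF1, rose with differentiation from 493 and 341 to 1000 and 1210 CPM in WT (log2 fold change 1.41, SE 0.246, adjusted p = 0.0178). In AMPK-KO cells it rose from 350 and 349 to 678 and 888 CPM (log2 fold change 1.16, SE 0.245, adjusted p = 0.0338). Mafk, a small MAF partner, rose in WT from 34.8 and 27.1 to 95.1 and 56.7 CPM (log2 fold change 1.29, SE 0.303, adjusted p = 0.0374). These were 2 of the 11 higher in WT and 1 in AMPK-KO cells, beside 5.78% and 4.81% of all genes. The calls of Bach1, Nfe2l1 and Mafk were each lost when some single library was left out.

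Enzymes that act on glutathione and peroxides included wide genotype differences. Gpx3, the secreted glutathione peroxidase, had 511 and 191 reads in WT d0 and 5 and 1 in AMPK-KO d0 (adjusted p = 0.0109), and 1759 and 1975 in WT d8 against 15 and 38 in AMPK-KO d8 (log2 fold change -6.29, SE 0.693, adjusted p = 0.00629). Sod3, the extracellular superoxide dismutase, was at 110 and 26.8 CPM in WT d0 and at 1.05 and 0.561 CPM in AMPK-KO d0, and at 96.8 and 73.3 against 0.571 and 0.632 CPM at d8 (log2 fold change -7.13, SE 0.794, adjusted p = 0.00629). As for Mgst1, the WT d0 replicate 1 library held more of both than replicate 2. Prdx5, a mitochondrial and peroxisomal peroxiredoxin, was at 128 and 123 against 59.9 and 54.7 CPM at d0 (log2 fold change -1.13, SE 0.137, adjusted p = 0.0109) and at 126 and 135 against 71.3 and 76.9 CPM at d8 (log2 fold change -0.82, SE 0.136, adjusted p = 0.0216). Prdx4, the peroxiredoxin of the endoplasmic reticulum, was higher in AMPK-KO d8 (log2 fold change 1.05, SE 0.224, adjusted p = 0.0434). The d8 calls of Gpx3 and Sod3 were kept without each library. Their d0 calls and those of Prdx5 and Prdx4 were each lost when some single library was left out. Of 19 tested genes of glutathione metabolism 0 were called higher and 1 lower at each time, and of 18 superoxide, peroxide and thioredoxin enzymes 0 were called higher and 2 lower at d0, and 1 higher and 2 lower at d8. The share of all genes called lower was 2.83% at d0 and 3.98% at d8, and the share called higher was 0.698% and 1.36%. With differentiation the glutathione list had 1 gene higher and 1 lower in WT and 2 higher and 2 lower in AMPK-KO cells, and the other list had 1 lower in WT, Prdx4 (log2 fold change -1.06, SE 0.224, adjusted p = 0.0295), and no call in AMPK-KO cells, beside 6.58% of all genes called lower and 5.78% higher in the WT series, and 4.95% and 4.81% in that of AMPK-KO cells. The summed fibroblast list was also lower in AMPK-KO cells, at 584 and 294 CPM in WT d0 and 112 and 158 CPM in AMPK-KO d0, and at 485 and 1500 against 72.2 and 110 CPM at d8. Its members did not all go one way. Col1a1, which led the sum in most libraries, and Lum were called lower at d8 and not at d0 (log2 fold changes at d8 -4.11 and -3.98), Pdgfra was fitted above 0 at both times without a call (0.10 and 0.33), and Thy1 was at 0 reads in all 8 libraries. The part of these cells or transcripts in the differences of Mgst1, Gpx3 and Sod3 was not tested.

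The TET2 table asked what the phosphomimetic TET2 does to transcription in cells that lack AMPK. Of the 10 genes, 2 passed the test between TET2-S97E and TET2-WT cells, both higher in TET2-S97E: Mgst1 and Gclc. Over the 13433 genes tested, 3.71% were called higher and 3.28% lower. Mgst1 was at 0.904 and 1.11 CPM in TET2-WT clone 1 (20 and 42 reads) and at 0.412 and 0.392 CPM in TET2-WT clone 2 (9 and 11 reads). In TET2-S97E it was at 5.90 and 4.20 CPM in clone 1 (117 and 129 reads) and at 7.57 and 4.74 CPM in clone 2 (150 and 145 reads). Each TET2-S97E library thus lay above each TET2-WT library, at a low level throughout. The log2 fold change was 2.97 (SE 0.408, adjusted p = 0.00705).

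Gclc was at 38.6, 37.0, 35.8 and 34.5 CPM in the 4 TET2-WT libraries and at 55.2, 54.8, 68.8 and 60.2 CPM in the 4 TET2-S97E libraries. The groups were narrow and did not overlap (log2 fold change 0.71, SE 0.114, adjusted p = 0.0105). Libraries of 1 clone are not independent samples of a genotype. With counts summed per clone, neither gene passed (adjusted p = 0.296 for Mgst1 and 0.338 for Gclc), in a fit by edgeR that called 0 of 15126 genes, of which 1575 had an unadjusted p under 0.05. With clone as a random effect in limma Mgst1 passed (adjusted p = 0.0285) and Gclc did not (0.0503), where 0.677% of all genes were called higher. Leaving out TET2-WT clone 1 or clone 2 gave 0.0176 and 0.0228 for Mgst1 and 0.0636 and 0.0562 for Gclc.

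Gclm and Gclc, the subunits of 1 enzyme, had fitted differences of opposite sign, of which that of Gclc alone passed with all libraries. Gclm was at 71.1 and 69.7 CPM in TET2-WT clone 1, 52.8 and 46.7 CPM in TET2-WT clone 2, 33.4 and 28.2 CPM in TET2-S97E clone 1 and 53.2 and 42.7 CPM in TET2-S97E clone 2. TET2-S97E clone 2 overlapped TET2-WT clone 2, and the genotype difference did not pass (log2 fold change -0.61, SE 0.218, adjusted p = 0.128). Without TET2-S97E clone 2 it did (log2 fold change -0.97, adjusted p = 0.0318). Txnrd1 was at 185 to 206 CPM in TET2-WT and at 228 to 242 CPM in TET2-S97E libraries, without overlap and without a call (log2 fold change 0.27, SE 0.102, adjusted p = 0.154). The libraries of the genotypes did not overlap for 3 of the 10 genes, against 15.3% of all genes tested.

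Hmox1 was set by 1 clone. It was at 48.5 to 56.6 CPM in the 4 TET2-WT libraries and at 56.1 and 68.7 CPM in TET2-S97E clone 1, but at 153 and 140 CPM in TET2-S97E clone 2. Over genotypes the log2 fold change was 0.97 (SE 0.301, adjusted p = 0.0869). Without TET2-S97E clone 1 it was 1.45 (adjusted p = 0.00222), and without TET2-S97E clone 2 it was 0.23 (adjusted p = 0.455). Between the TET2-S97E clones, Hmox1 was the 1 of the 10 genes that passed (clone 2 against clone 1, log2 fold change 1.23, SE 0.161, adjusted p = 0.00306), where 6.39% of all genes were called. Nqo1, at 9.53 and 8.07 CPM in clone 1 and at 19.2 and 14.8 CPM in clone 2, was close to the threshold (log2 fold change 0.95, SE 0.247, adjusted p = 0.0558), as was Gclm (log2 fold change 0.64, SE 0.173, adjusted p = 0.0637). With the replicate number as a block, these 3 genes passed, and so did 10.8% of all genes. Between the TET2-WT clones none of the 10 passed by edgeR, where 0.901% of all genes were called. Mgst1, Gclm and Nqo1 had unadjusted p under 0.05 there, as did 2809 of the 13433 genes tested. DESeq2 called 0 of the 10 and 6.95% of all genes.

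The remaining genes gave no call between the TET2 genotypes. Nfe2l2 was at 201 to 233 CPM in TET2-WT libraries, at 239 and 241 CPM in TET2-S97E clone 1 and at 162 and 182 CPM in TET2-S97E clone 2, so the clones of 1 genotype lay on either side of the other genotype. Keap1 was at 46.9 to 52.1 CPM in TET2-WT and at 34.4 to 47.1 CPM in TET2-S97E libraries (log2 fold change -0.25, SE 0.127, adjusted p = 0.280). Srxn1 was at 93.4 to 166 CPM in TET2-WT and at 95.0 to 126 CPM in TET2-S97E libraries (log2 fold change -0.36, SE 0.184, adjusted p = 0.272). Slc7a11 had between 5 and 89 reads per library, and its difference of 1.14 on the log2 scale had an SE of 0.786. Of the 10 genes, 6 had a fitted value above 0 (median log2 fold change 0.31, against 0.01 over all genes), and the median ranged from 0.14 to 0.50 when 1 clone was left out.

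**Figure D4:**
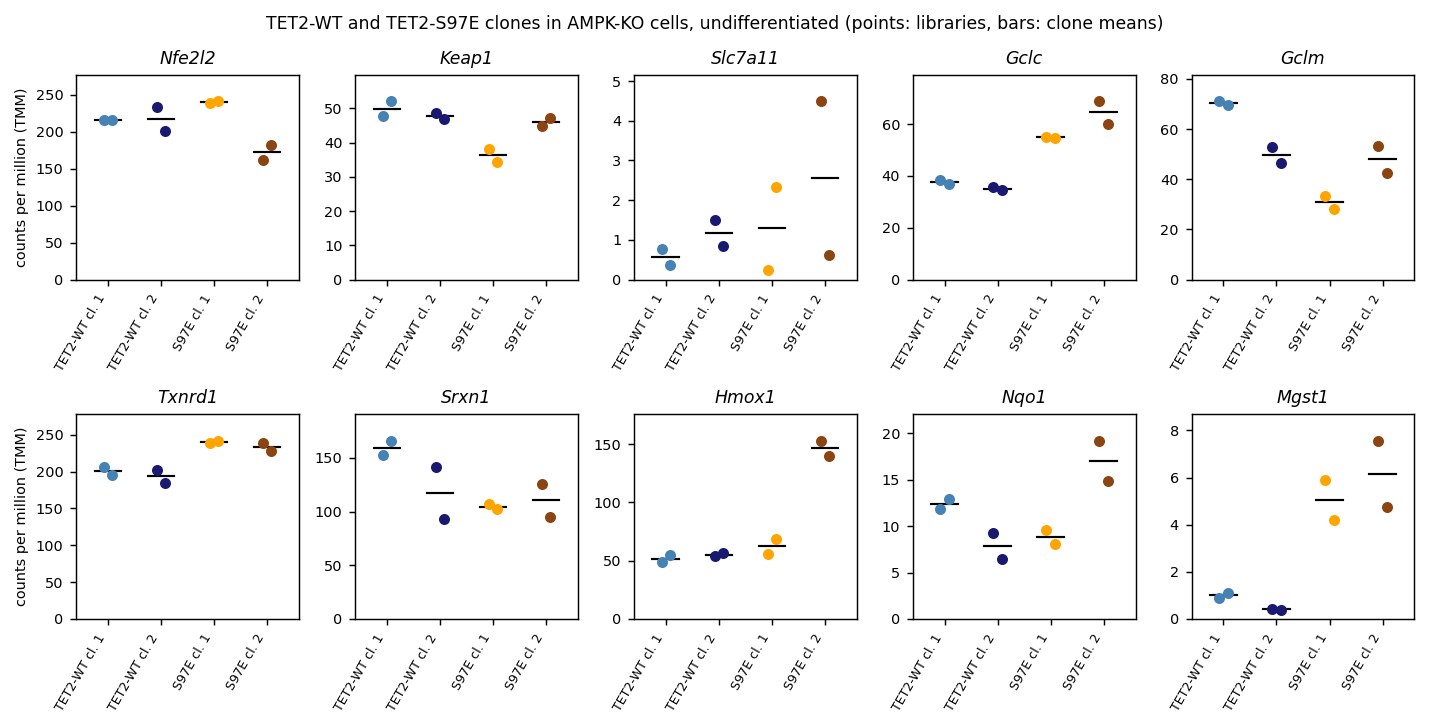
CPM (TMM-normalized, linear axes from 0) of the 10 genes in each library of the TET2-WT and TET2-S97E clones (cl.). Points are libraries and bars are the means of 2 libraries per clone. Gclc and Mgst1 are higher in both TET2-S97E clones, whereas Hmox1 is high in TET2-S97E clone 2 alone, at 153 and 140 CPM.

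Differentiation markers differed between the TET2 genotypes and also between clones. The median log2 fold change of the 5 myotube markers was 4.71 between genotypes. It was 3.24 between the TET2-WT clones and -1.70 between the TET2-S97E clones (clone 2 against clone 1). The genotype calls treat libraries of 1 clone as separate samples, and 3.71% of all genes were called higher. With counts summed per clone 0 of 15126 genes were called. The 5 myotube markers were each called higher in TET2-S97E, and their summed level was 4.79 and 6.54 CPM in TET2-WT clone 1, 18.9 and 149 CPM in TET2-WT clone 2, 3790 and 1160 CPM in TET2-S97E clone 1 and 1270 and 261 CPM in TET2-S97E clone 2, with Acta1 the most abundant and Myh1 at 0 reads in 1 TET2-WT library. The share of mitochondrial reads was 1.14% and 1.0% in TET2-WT clone 1, 1.38% and 2.14% in TET2-WT clone 2, 2.29% and 2.12% in TET2-S97E clone 1 and 2.03% and 2.09% in TET2-S97E clone 2, so that 3 of the 4 TET2-WT libraries lay below each TET2-S97E library. In the first table the same markers were called higher with differentiation. There the fitted change of Gclc with differentiation was below 0 in both genotypes and that of Mgst1 above 0, none of them called. These signs turned with 1 library: Gclc in AMPK-KO cells came to 0.25 without AMPK-KO d0 replicate 1. Mgst1 in WT cells came to -0.12 without WT d0 replicate 2. The part of the markers and of the mitochondrial share in the TET2 genotype differences of Mgst1 and Gclc was not tested.

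In the lists of partners, further targets, glutathione genes and peroxide enzymes, each call between the TET2 genotypes was in the lower direction, where 3.28% of all genes were called lower and 3.71% higher. These calls treat libraries of 1 clone as separate samples. With counts summed per clone 0 of 15126 genes were called between the TET2 genotypes, so none of the calls stood in that fit. Of 11 partners and regulators 1 was lower: Maff, a small MAF, at 24.4 to 38.7 CPM in TET2-WT and 14.6 to 24.0 CPM in TET2-S97E libraries (log2 fold change -0.82, SE 0.209, adjusted p = 0.0464). Of 22 further targets 1 was lower, Osgin1, an oxidative stress induced growth inhibitor (log2 fold change -0.53, SE 0.135, adjusted p = 0.0457). Of 19 genes of glutathione metabolism 2 were lower, Mgst2 (log2 fold change -1.13, SE 0.222, adjusted p = 0.0207) and Ggt7 (log2 fold change -1.14, SE 0.280, adjusted p = 0.0406). Mgst2, a relative of Mgst1, thus differed in the opposite direction, from 6.69 to 12.3 CPM in TET2-WT to between 3.81 and 4.29 CPM in TET2-S97E libraries. Of 18 superoxide, peroxide and thioredoxin enzymes 2 were lower: Txnip, the inhibitor of thioredoxin, at 160 to 254 CPM in TET2-WT and 87.9 to 116 CPM in TET2-S97E libraries (log2 fold change -0.99, SE 0.162, adjusted p = 0.0110), and Prdx4 (log2 fold change -0.68, SE 0.172, adjusted p = 0.0450).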

How the data were processed

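Total RNA was sequenced by the authors with a ribosomal-depletion kit from 16 libraries of C2C12 cells. Per the submitters' processing notes and methods, bcl2fastq 2.17, Trim Galore 0.4.5, STAR 2.5.3a and featureCounts 1.5.3 were used with mm10 and GENCODE M12. The deposited values were raw read counts per gene, 1 table per experiment. The strand setting and the handling of reads with several hits are not given in the sources used here. Each of 49326 of 49585 gene IDs was matched to a symbol through GENCODE M21, whose merged exon lengths gave TPM.

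Each table was filtered with filterByExpr, normalized by TMM and tested with edgeR 4.0.16 (quasi-likelihood, in R 4.3.3), with Benjamini-Hochberg adjustment over all genes tested (14329 and 13433) and a threshold of 0.05. The first table was fitted with 4 group means and the second with 2 genotype means, and clones were compared with 4 clone means. SEs were the fitted log2 fold change divided by the square root of F. Alternatives were DESeq2 1.42.0, other normalizations and filters, fits on fewer libraries, a replicate block, counts summed per clone and limma 3.58.1 with clone as a random effect. The script was tested on simulated data. Replicate libraries differed by more than sampling noise (chi-square per degree of freedom 29.4 to 107). The labels do not say whether replicates were separate cultures, so p-values measure the spread between these libraries, which may be technical.

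The 10 genes, the 6 pathway lists and the 6 marker lists were chosen with earlier results of these data known. By rule, at most the 3 called genes of each pathway list with the lowest adjusted p were picked per comparison. These 39 picked results are the named results counted in the next section, and some appear in the text only within list counts.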

Additional observations from a re-analysis of the deposited data

How the results depend on the processing

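With 2 libraries per group, calls near the threshold moved with 1 library, and Mgst1 and Slc7a11 had few reads. Left out 1 at a time, libraries gave 0 to 1 called genes of the 10 for AMPK-KO against WT at d0, 0 at d8 (lowest and highest), 0 to 4 for WT differentiation, 0 to 1 for AMPK-KO differentiation and 2 to 3 for TET2-S97E against TET2-WT. Of 39 other named results, 35 lost their call without some library, 18 lost it under some other alternative, and 0 changed sign in either case; Duox1 and Txnip (TET2-S97E) and Gpx3 and Sod3 (AMPK-KO d8) kept it without each library.

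Without the filter on low counts, 3, 2, 5 and 6 genes were called for AMPK-KO against WT at d0, at d8, WT differentiation and AMPK-KO differentiation, and 3 between the TET2-S97E clones, where 8.08%, 9.98%, 13.1%, 12.1% and 6.56% of all genes were called in either direction. With at least 10 counts in every library, 0 were called at d8 and 1 between the TET2 genotypes, where Mgst1 was then not tested. This filter gave calls in either direction for 2.41% of all genes at d8 and 6.5% between the TET2 genotypes. DESeq2 called 2 at d8, 4 in WT differentiation (Txnrd1 was added), 5 in AMPK-KO differentiation, 4 between the TET2 genotypes and 4 between the TET2-S97E clones, where it called 11.6%, 19.2%, 19.2%, 13.6% and 10.6% of all genes. Fits on 1 day called 0 at d0, and fits on 1 genotype called 1 in each differentiation series: Nqo1 in WT, and in AMPK-KO cells Slc7a11 (adjusted p = 0.0453), whereas Gclm (0.0501) and Nqo1 (0.0502) lost their calls. These fits called 2.54% of all genes at d0, 8.85% in WT differentiation and 5.99% in AMPK-KO differentiation. Without TET2-WT clone 1 or clone 2, or with clone as a random effect, 1 was called between the TET2 genotypes. Of all genes, 1.29%, 4.39% and 1.24% were then called in either direction. With counts summed per clone 0 of the 10 and 0.0% of all genes were called, so Duox1 and Txnip were not called there either. Without TET2-S97E clone 1 there were 3, with Hmox1 added, beside 5.63% of all genes. Without TET2-S97E clone 2 there were also 3, with Gclm added, beside 8.42% of all genes.

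Deviations of same-numbered libraries were correlated at r = 0.119 to 0.324 in the first table, above 0 for each of the 6 pairs of groups. For the TET2 clones r was -0.036 to 0.512, and among TET2-WT clone 2 and the TET2-S97E clones it was 0.399 to 0.512. The main fits hold no term for the replicate number. There are only 2 numbers per group and the labels tie them to no shared culture or day, so the block is not taken as a pairing. With a replicate block, 3 genes were called between the TET2-S97E clones, and the counts in the other comparisons were unchanged. Over all genes the replicate block gave 740 calls at d0 (505 without) and 1144 at d8 (766 without), and 1445 between the TET2-S97E clones (858 without). It gave 622 between the TET2-WT clones (121 without), 2360 in WT differentiation (1771 without) and 1854 in AMPK-KO differentiation (1398 without). Between the TET2 genotypes the calls fell to 858 (938 without), and the interaction stayed at 0.

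No called value changed sign, but values without a call did. Without TET2-S97E clone 2, Nfe2l2 and Nqo1 between TET2 genotypes came to 0.14 and -0.20. Nfe2l2 between TET2-WT clones came to -0.019 with upper-quartile normalization. Keap1 at d8 came to -0.0104 with DESeq2 size factors, -0.0084 without the filter, -0.023 with the stricter filter, -0.0104 with DESeq2 and -0.020 on d8 libraries alone. With the replicate block, Gclc at d0 came to -0.031 and Hmox1 at d8 to -0.0009. Without 1 library at a time, log2 fold changes ranged as follows at d0: Keap1 from -0.084 to 0.14, Gclc from -0.68 to 0.56, Txnrd1 from -0.045 to 0.68 and Nqo1 from -0.40 to 0.87. At d8 they ranged for Nfe2l2 from -0.0061 to 0.29, Keap1 from -0.012 to 0.033, Slc7a11 from -0.97 to 1.32, Gclc from -0.10 to 0.63 and Hmox1 from -0.88 to 0.70. In differentiation they ranged for Hmox1 from -0.17 to 0.47 (WT) and from -1.52 to 0.15 (AMPK-KO), for Gclc from -0.97 to 0.25 (AMPK-KO) and for Mgst1 from -0.12 to 1.84 (WT). Between TET2 genotypes Nfe2l2 ranged from -0.15 to 0.011. The cause of these changes was not tested.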

Other observations

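Of 14 genes that make or help to make reactive oxygen, 8 were tested in the first table and 7 in the second. In WT differentiation 2 were called higher and 0 lower, where 5.78% of all genes were called higher: Nox4, an NADPH oxidase that makes hydrogen peroxide, from 20.4 and 8.95 to 53.5 and 61.0 CPM (log2 fold change 1.96, SE 0.428, adjusted p = 0.0310), and Ncf1, a cytosolic oxidase subunit, from 12 and 1 reads to 58 and 147 reads (adjusted p = 0.0444). In AMPK-KO differentiation and between AMPK-KO and WT cells none was called. Between the TET2 genotypes 2 were higher and 0 lower, where 3.71% of all genes were called higher. Both calls treat libraries of 1 clone as separate samples, and with counts summed per clone 0 of 15126 genes were called. Nox4 was at 9.26 to 21.5 CPM in TET2-WT and 27.1 to 50.2 CPM in TET2-S97E libraries (log2 fold change 1.40, SE 0.282, adjusted p = 0.0217), and Duox1, a dual oxidase, was at 1.60 to 2.03 CPM and 4.05 to 5.55 CPM (log2 fold change 1.43, SE 0.226, adjusted p = 0.0101). Between clones of 1 genotype the list had 1 gene lower and 0 higher in clone 2 each time, named here after their values were seen: Ncf4, an oxidase subunit, in TET2-S97E (log2 fold change -3.01, SE 0.487, adjusted p = 0.00803) and Maoa, a monoamine oxidase, in TET2-WT (log2 fold change -1.05, SE 0.151, adjusted p = 0.0202). Over all genes, 6.39% were called in either direction between the TET2-S97E clones and 0.901% between the TET2-WT clones.

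Of 13 genes of the ATF4 and metal response, which shares Slc7a11 with the NRF2 response, 1 was called higher in WT differentiation, Nupr1 (log2 fold change 1.78, SE 0.423, adjusted p = 0.0392). The list had 1 gene lower in AMPK-KO differentiation, Phgdh, the first enzyme of serine synthesis (log2 fold change -2.10, SE 0.474, adjusted p = 0.0396), and 1 lower in TET2-S97E, Ddit3 (log2 fold change -0.69, SE 0.176, adjusted p = 0.0458). Over all genes 5.78% were called higher in WT differentiation, 4.95% lower in AMPK-KO differentiation and 3.28% lower in TET2-S97E. With counts summed per clone 0 of 15126 genes were called between the TET2 genotypes, so the call of Ddit3 did not stand there. There was no call from the list between AMPK-KO and WT cells at d0 or d8.

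The ratio of Gclc to Gclm within a library, taken from TPM, does not depend on library scaling. It was chosen after the values were seen and is given without a test. The ratio was 0.906 and 0.887 in TET2-WT clone 1, 1.13 and 1.23 in TET2-WT clone 2, 2.76 and 3.24 in TET2-S97E clone 1 and 2.16 and 2.35 in TET2-S97E clone 2. In the first table it ranged from 0.866 to 2.27. WT and AMPK-KO cells overlapped at each time, whereas both WT d8 libraries (2.27 and 1.86) lay above both AMPK-KO d0 libraries (1.76 and 0.866).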
